A study of Mus musculus with 22 samples.

Results

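Lats2, a kinase of the Hippo pathway, was examined with 9 other genes of the same pathway in the anterior cingulate cortex (ACC) of mice after repeated activation of the input from the basolateral amygdala (BLA). The 10 genes, of 37786 in the count table, were the kinases Lats1, Lats2, Stk3 and Stk4, the adaptor Sav1, the upstream regulator Nf2, the co-activators Yap1 and Wwtr1, and the transcription factors Tead1 and Tead2, each taken by its symbol. Lats2 had been chosen from these data for its lower level in stimulated mice, so its difference between the groups is described below without a test, while the other 9 genes were chosen by pathway membership. All 10 had enough counts to be tested, at least 10 counts in at least 10 mice.

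The 22 mice were wild-type male C57BL/6J, 8 weeks old when the procedures began. All of them carried the AAV5-CamKIIa-ChR2-EYFP vector in the BLA of both sides, which puts a light-gated channel under a promoter of excitatory neurons, and an optic fibre in the ACC. In the stim group (n = 10) blue light was delivered to the BLA terminals in the ACC in 9 sessions, on 3 consecutive days a week for 3 weeks, and in the ctrl group (n = 12) the light stayed off. Bulk tissue of the ACC of both sides was taken 48 h after the last session, although the light reached the tissue through a fibre on a single side, and each library was made from amplified full-length cDNA of 5 ng of RNA. The animals came in 2 batches. The labels do not name the batch. They number the libraries 1 to 11 (6 ctrl and 4 stim, with no library 7) and 12 to 23 (6 ctrl and 6 stim), and this split, which is not stated to be the batch, was a term of the main fit.

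In the Hippo pathway, the kinases STK3 and STK4 (also called MST2 and MST1), held by the scaffold SAV1, phosphorylate and activate LATS1 and LATS2. The LATS kinases then phosphorylate YAP and TAZ, the products of Yap1 and Wwtr1, which keeps these co-activators in the cytoplasm. Without that phosphorylation YAP and TAZ enter the nucleus and bind TEAD factors, and genes for growth, adhesion and cytoskeleton are transcribed, among them Lats2 itself. NF2, or merlin, recruits the LATS kinases to the membrane. In the adult brain YAP and TAZ are found mainly in astrocytes, neural stem cells and vascular cells.

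Since Lats2 is known as a target of the TEAD factors as well as a kinase above them, the starts of the LATS genes and of the co-activator genes are shown, from 150 bases before to 20 after the annotated start (RefSeq, GRCm38.p6, 5′ to 3′ on the strand of the gene). Capitals mark the letters GGAATG (the core read by TEAD factors) or GGGCGG (the GC box of SP and KLF factors), or their reverse complements. The stretches lie at chr14:57746104-57746273 on the minus strand for Lats2, chr10:7681059-7681228 on the plus strand for Lats1, chr9:8004577-8004746 on the minus strand for Yap1 and chr3:57575891-57576060 on the minus strand for Wwtr1.
Lats2: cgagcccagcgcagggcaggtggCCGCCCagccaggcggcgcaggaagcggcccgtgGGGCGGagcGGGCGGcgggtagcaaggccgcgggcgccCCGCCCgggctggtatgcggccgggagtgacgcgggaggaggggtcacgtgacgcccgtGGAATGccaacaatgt
Lats1: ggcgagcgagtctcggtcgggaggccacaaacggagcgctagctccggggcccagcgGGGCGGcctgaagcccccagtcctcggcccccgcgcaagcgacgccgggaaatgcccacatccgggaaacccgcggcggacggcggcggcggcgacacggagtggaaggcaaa
Yap1: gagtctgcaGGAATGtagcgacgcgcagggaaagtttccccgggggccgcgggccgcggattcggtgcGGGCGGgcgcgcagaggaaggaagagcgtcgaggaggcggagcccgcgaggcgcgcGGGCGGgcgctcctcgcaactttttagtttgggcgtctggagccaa
Wwtr1: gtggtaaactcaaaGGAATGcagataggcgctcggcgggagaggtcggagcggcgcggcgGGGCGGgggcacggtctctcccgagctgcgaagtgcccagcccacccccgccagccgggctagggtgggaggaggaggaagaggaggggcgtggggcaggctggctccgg
The Lats2 stretch holds the TEAD letters 1 time, from base 5 of the transcript on, and the GC box letters 4 times. The Lats1 stretch holds the GC box letters 1 time and the TEAD letters 0 times. Yap1 and Wwtr1 hold the TEAD letters 1 time each, beginning at bases -141 and -136 from the start.

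RefSeq promoter windows (300 bases, 250 before the start and 50 after it) were found for 8 of the 10 genes, 11 windows in all, since Lats2, Nf2 and Wwtr1 have a further start and the windows of Wwtr1 overlap. On either strand, TEAD letters were found in windows of 4 genes (Lats2, Sav1, Yap1 and Wwtr1), in 5 of the 11 windows and in 14.7% of all 32851 mouse windows. GC box letters were found in 9 of the 11 windows and in 35.7% of all windows. The overlapping windows of Wwtr1 hold the same TEAD and GC box letters, which are counted in both windows. The letters TGANTCA of AP-1 (7.81% of all windows) and TGACGTCA of the CRE (1.79%) were in 0 of the 11. The inner start of Lats2, at chr14:57734369-57734668, held none of the 4 motifs, and its GC content was 42.7% against 71.7% at the outer start. No binding was measured here, and a match is only a description of the letters.

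Total counts per library were 24563116 to 36542883 in ctrl mice (median 31797782) and 23090483 to 43668462 in stim mice (median 32917051). Levels are given as CPM, counts scaled to the size of each library with the TMM factors of edgeR. Of 9 lists of cell type markers, 0 genes were at 0 in all mice. The summed level of the 12 neuronal markers (Snap25 and Camk2a among them) was 9550 to 16020 CPM, that of 9 striatal neuron markers 243 to 362 CPM and that of the choroid plexus and ependyma markers 7.44 to 140.2 CPM. The ctrl mice 9 and 11 had been known from earlier results to hold the highest levels of oligodendrocyte genes. The log2 difference of Lats2 and values for the marker lists are given with and without them, while the levels and ratios of Lats2 include them. Because bulk tissue was sequenced, fewer cells of a type and less RNA per cell cannot be told apart.

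All 10 genes were found in every mouse, at very different levels. Per kilobase of exon, Nf2 was highest at 12.7 ± 3.87 CPM (SD, n = 22), above 76.7% of the tested genes, and was followed by Stk4 at 9.50 ± 2.85 and Wwtr1 at 6.40 ± 1.88 CPM per kilobase. Stk3 had 3.17 ± 0.39 CPM per kilobase. Lats2 with 1.995 ± 0.66, Lats1 with 1.92 ± 0.52 and Yap1 with 1.66 ± 0.34 CPM per kilobase lay close together. Lats2 was above Lats1 in 13 of 22 mice, so over all mice these genes did not differ beyond their spread. Lats1 was above Yap1 in 13 of 22 mice as well, but this order depended on the run of library numbers. In libraries 12 to 23 the means were 2.32 ± 0.30 for Lats1 and 1.78 ± 0.32 CPM per kilobase for Yap1 (SD, n = 12). In libraries 1 to 11 they were 1.45 ± 0.24 and 1.51 ± 0.31 (SD, n = 10). Every other neighbour in the order kept its place in 19 to 22 of the 22 mice. Sav1 had 1.11 ± 0.14 CPM per kilobase. The TEAD genes were lowest, Tead2 at 0.480 ± 0.112 and Tead1 at 0.302 ± 0.075 CPM per kilobase, with as few as 47 and 70 counts in a mouse. Their order depends on the length used, which merges every annotated exon (13570 bases for Tead1, 4788 for Tead2). In CPM Tead1 had the higher mean, 4.09 against 2.30. The co-activator encoded by Wwtr1 was thus the more abundant of the pair in RNA, with a Wwtr1 to Yap1 ratio per kilobase of 3.83 ± 0.78 (SD, n = 22), and in this cortex Stk4 exceeded Stk3 3.04 ± 0.95 times. In CPM the means were 30.6 for Wwtr1 and 15.4 for Yap1, and 55.7 for Stk4 and 19.4 for Stk3.

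**Figure D1:**
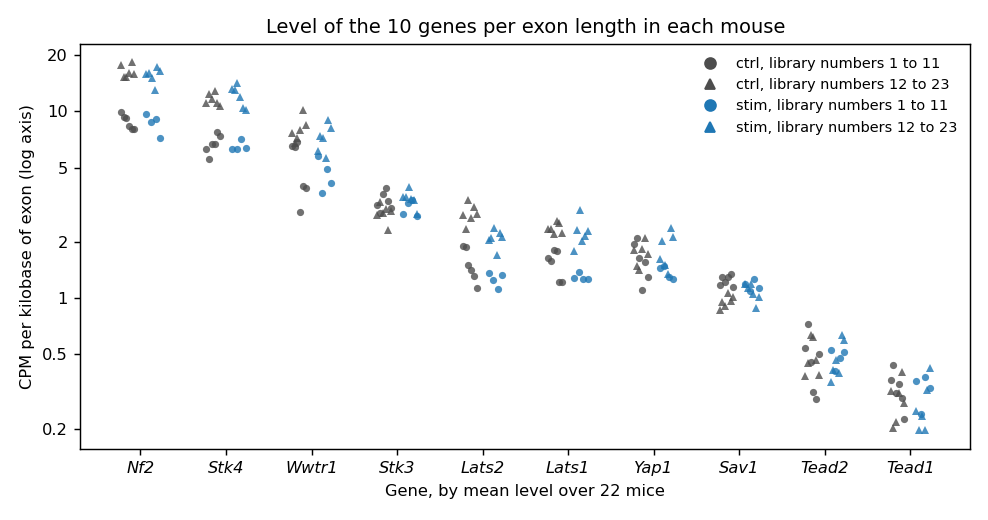
CPM per kilobase of exon (log axis) of each gene in each mouse, genes ordered by mean level; grey points are ctrl and blue points stim mice, circles libraries 1 to 11 and triangles libraries 12 to 23. The order runs from Nf2 at 12.7 to Tead1 at 0.302 CPM per kilobase, and the triangles lie above the circles for Nf2 and Stk4 in both groups.

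Lats2 was lower in stim mice. In ctrl mice its level had a lowest value of 7.95, a median of 14.8 and a highest value of 23.4 CPM, and in stim mice 7.84, 13.1 and 16.6 CPM. Over all mice the groups overlapped, and in both groups libraries 12 to 23 were higher than libraries 1 to 11. Within libraries 12 to 23, ctrl mice had 16.4 to 23.4 CPM with a median of 19.6, and stim mice 11.9 to 16.6 with a median of 14.8. There, 5 of 6 stim mice lay under every ctrl mouse, and the overlap was that of stim mouse 7 at 16.6 with ctrl mouse 8 at 16.4 CPM. In libraries 1 to 11 the 4 stim mice had 9.52, 8.76, 7.84 and 9.23 CPM, against 7.95 to 13.2 with a median of 10.2 in 6 ctrl mice. All 4 lay under the ctrl median and 1 of them under every ctrl mouse. The highest of these libraries were ctrl mice 1 and 2 at 13.2 and 13.1 CPM, while ctrl mice 3 to 6 had 10.4, 9.88, 9.14 and 7.95 CPM. Ctrl mice 1 and 2 also had the highest mitochondrial shares of all mice, 4.41% and 4.81%. The part of this share in the level of Lats2 was not tested.

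In the fit that also held the run, Lats2 in stim mice stood at 0.777 times its level in ctrl mice, a log2 difference of -0.36 ± 0.089 (SE). The difference was -0.25 ± 0.151 (SE) in libraries 1 to 11 and -0.48 ± 0.107 (SE) in libraries 12 to 23. With group as the only term it was -0.31 ± 0.190 (SE). Over the 10 alternative fits, which reuse the data on which Lats2 was chosen, it ranged from -0.48 to -0.25. Of the 17524 genes tested, 1130 (6.45%) were lower by at least as much as Lats2. For comparison, edgeR's quasi-likelihood test called 0 genes (0%) between the groups at an adjusted p under 0.05 (smallest 0.241), the DESeq2 Wald test called 33 and limma 1, and without adjustment 2015 genes (11.5%) lay under a p of 0.05 in edgeR, 1060 of them higher and 955 lower in stim mice.

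**Figure D2:**
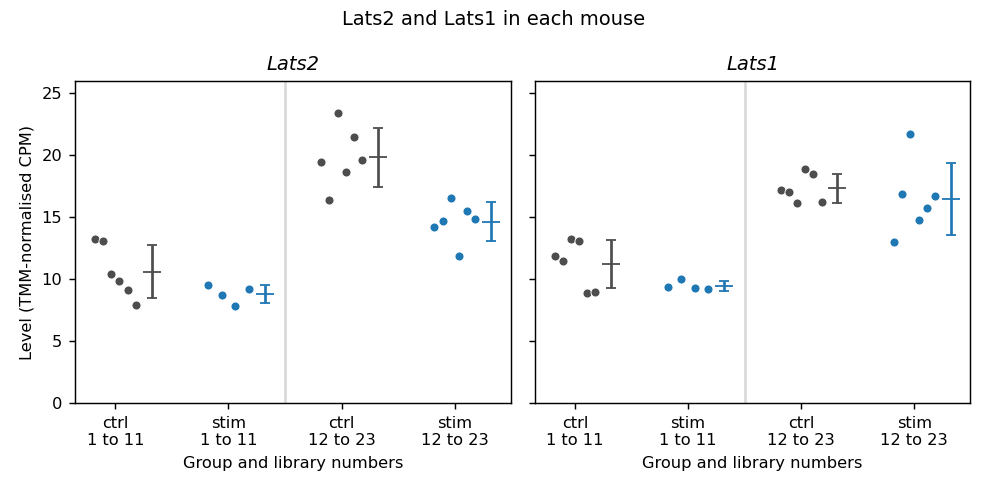
TMM-normalised CPM of Lats2 (left) and Lats1 (right) in each mouse, by group and by run of library numbers; points are mice and bars the mean ± SD of each set. In libraries 12 to 23, 5 of 6 stim mice lie under every ctrl mouse for Lats2, whereas for Lats1 the highest value of all, 21.7 CPM, is that of a stim mouse.

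Markers of oligodendrocytes and astrocytes also stood lower in stim mice. All 15 oligodendrocyte markers tested, such as Mbp and Mog, were lower (median log2 difference -0.67). Of these, 13 had an edgeR p under 0.05 before adjustment and 0 after it, and 0 were called by DESeq2 or limma. Their summed level was 3511 to 20718 CPM in ctrl and 2759 to 6135 CPM in stim mice. Without ctrl mice 9 and 11 the ctrl range was 3511 to 6719 CPM, 14 of 15 markers were lower by a median of -0.12, and 2 had a p under 0.05 before adjustment. The 14 astrocyte markers were all lower by a median of -0.15, 1 of them at an unadjusted p under 0.05, with summed levels of 4604 to 9234 CPM in ctrl and 4504 to 8287 CPM in stim mice. Of 12 neuronal markers 11 were higher, 3 of them at an unadjusted p under 0.05. Without ctrl mice 9 and 11, 13 of 14 astrocyte markers were lower (median -0.15) and 10 of 12 neuronal markers higher (median 0.08), 1 of each list at an unadjusted p under 0.05. The part of these differences in that of Lats2 was not tested. Ctrl mice 9 and 11 also had the highest Lats2 levels of all mice, 23.4 and 21.5 CPM. Without them the log2 difference of Lats2 was -0.32 ± 0.090 (SE).

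Lats1, the paralogue of Lats2 with the same substrates, had 8.90 to 18.9 CPM in ctrl mice (median 14.7) and 9.21 to 21.7 CPM in stim mice (median 13.9). In libraries 1 to 11 the 4 stim mice lay between 9.21 and 10.1 CPM, under the ctrl median of 11.7, and in libraries 12 to 23 the medians were 17.1 in ctrl and 16.3 in stim mice. The log2 difference of Lats1 was -0.15 ± 0.086 (SE), with an edgeR p of 0.0944, an adjusted p of 0.503 over all genes and a 95% interval of -0.32 to 0.02. Its groups overlapped in both runs. Per kilobase, the Lats2 to Lats1 ratio was 1.101 ± 0.20 (SD, n = 12) in ctrl and 0.956 ± 0.110 (SD, n = 10) in stim mice. In libraries 12 to 23 Lats2 exceeded Lats1 in 6 of 6 ctrl mice and in 2 of 6 stim mice, and in libraries 1 to 11 in 3 of 6 and 2 of 4. These ratios use the values on which Lats2 was chosen, and are given without a test.

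None of the 9 genes besides Lats2 had an unadjusted p under 0.05 in edgeR, against 11.5% of all genes tested, and 0 of the 9 passed an adjusted p under 0.05 by edgeR, DESeq2 or limma. In limma the unadjusted p of Lats1 was 0.0379 (log2 difference -0.17, adjusted p of 0.286), and in edgeR on libraries 12 to 23 alone that of Stk3 was 0.0416 (0.22, adjusted p of 0.384). Stk3, which activates the LATS kinases, had 14.2 to 23.9 CPM in ctrl mice (median 18.4) and 16.8 to 24.1 CPM in stim mice (median 20.5), a log2 difference of 0.08 ± 0.081 (SE, adjusted p of 0.6998). Its paralogue Stk4 had 32.5 to 75.7 CPM in ctrl and 36.8 to 82.7 CPM in stim mice, with a difference of 0.01 ± 0.065 (SE, adjusted p of 0.960) and a 95% interval of -0.11 to 0.14. Sav1, which joins these kinases to LATS, lay at 4.57 to 7.09 CPM in ctrl and 4.68 to 6.70 CPM in stim mice (0.05 ± 0.078, SE). For Nf2 the ranges were 54.6 to 124.9 CPM and 49.2 to 118.6 CPM, with a log2 difference of -0.05 ± 0.061 (SE) and a 95% interval of -0.17 to 0.07. The groups overlapped for each of these genes.

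Downstream of LATS, Yap1 had 10.3 to 19.3 CPM in ctrl mice (median 15.6) and 11.7 to 22.1 CPM in stim mice (median 13.8), a log2 difference of -0.05 ± 0.114 (SE, adjusted p of 0.891). Wwtr1 had 13.9 to 48.3 CPM in ctrl mice (median 32.7) and 17.6 to 43.0 CPM in stim mice (median 28.3). Its log2 difference of -0.15 ± 0.128 (SE, adjusted p of 0.664, 95% interval of -0.40 to 0.10) was as large as that of Lats1 with a wider error. Tead1 lay at 2.74 to 5.95 CPM in ctrl and 2.66 to 5.70 CPM in stim mice, and Tead2 at 1.38 to 3.48 and 1.71 to 3.03 CPM. Their log2 differences were -0.05 and -0.01, with 95% intervals of -0.34 to 0.24 for Tead1 and -0.31 to 0.30 for Tead2. RNA levels do not show the phosphorylation or the location of YAP and TAZ, through which the pathway acts.

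The wider pathway was examined in 5 lists. The list of core kinases, scaffolds and partners held 25 genes, of which 18 were lower and 7 higher in stim mice (median log2 difference -0.06, against 0.01 over all genes tested). At an unadjusted p under 0.05 (11.5% of all genes), 3 of the 25 differed, and 0 passed the adjusted threshold by edgeR, DESeq2 or limma. The same held in each list below, with Lats2 left out of the list of targets. Stk38, or NDR1, a relative of the LATS kinases, had a median of 36.2 CPM in ctrl and 29.6 CPM in stim mice (log2 difference -0.24 ± 0.085, SE, p of 0.00835, adjusted p of 0.346). In libraries 12 to 23 its medians were 42.5 and 33.6 CPM and in libraries 1 to 11 28.1 and 27.9 CPM. Map4k2, of the MAP4K family that phosphorylates LATS beside STK3 and STK4, was lower by a log2 difference of -0.15 ± 0.065 (adjusted p of 0.402), and Mink1 of the same family was higher by 0.17 ± 0.063 (adjusted p of 0.357). The LATS co-activators Mob1a and Mob1b stood at -0.13 ± 0.089 and -0.20 ± 0.134.

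In the STRIPAK complex, a phosphatase assembly that holds STK3 and STK4 inactive, 6 of 14 genes were lower and 8 higher (median 0.05). The kinase Stk25 stood at 0.08 ± 0.047 (SE, adjusted p of 0.529) and the scaffold Strn3 at 0.10 ± 0.064 (SE, adjusted p of 0.538).

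Among 19 partners and regulators of YAP and TAZ that could be tested, 8 were lower and 11 higher (median 0.03). Amot, which holds YAP at junctions and on actin, had a median of 22.7 CPM in ctrl and 17.6 CPM in stim mice of libraries 12 to 23, and 12.2 and 8.36 CPM in libraries 1 to 11 (log2 difference -0.29 ± 0.130, adjusted p of 0.404). The tight junction gene Tjp1, whose product binds YAP and TAZ, stood at -0.15 ± 0.068 (adjusted p of 0.402). The 6 tested 14-3-3 genes, whose products hold phosphorylated YAP in the cytoplasm, were all higher in value, from 0.03 for Ywhaq to 0.17 for Ywhab, and 0 of them had an unadjusted p under 0.05. Tead3 and Tead4 stood at -0.28 ± 0.211 and 0.05 ± 0.287.

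Of 14 genes for polarity and adhesion, which feed into the pathway from the membrane, 9 were lower and 5 higher (median -0.06) and 0 had an unadjusted p under 0.05. The smallest p values in this list were those of Crb1 at 0.55 ± 0.299, with medians of 0.73 CPM in ctrl and 1.16 CPM in stim mice, of Ctnna1 at -0.10 ± 0.058 and of Fat1 at -0.16 ± 0.094. The 21 tested targets of YAP and TAZ included Lats2, and 8 were lower and 13 higher (median 0.02). Without Lats2, 0 of these targets had an unadjusted p under 0.05. The classical targets Ctgf and Cyr61, listed under these older symbols for Ccn2 and Ccn1, stood at -0.06 ± 0.198 and -0.02 ± 0.166, Amotl2 at -0.16 ± 0.084 (adjusted p of 0.468), Gadd45b at 0.20 ± 0.118 and Ccdc80 at 0.11 ± 0.078. In these lists Vgll2, Sfn, Crb3 and Ankrd1 had too few counts to be tested.

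**Figure D3:**
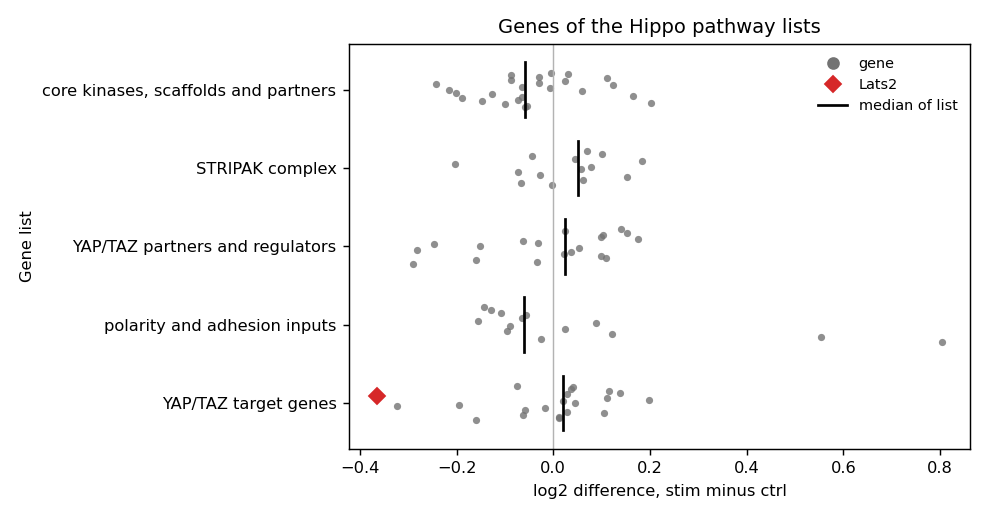
Log2 difference between stim and ctrl mice of each tested gene, by list; grey points are genes, the red diamond is Lats2 and black lines are the medians of the lists. The medians lie between -0.06 and 0.05, and Lats2, chosen for its lower level in stim mice, lies at -0.36.

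The same genes were compared between the runs of library numbers. Between libraries 12 to 23 and 1 to 11, 68.1% of all tested genes differed at an adjusted p under 0.05 in edgeR, 33.7% higher and 34.3% lower in libraries 12 to 23. Of the 10 genes 6 did so, 5 of them higher, a share near that of all genes. Nf2 was 1.83 times as high in libraries 12 to 23 (49.2 to 67.6 CPM against 88.9 to 124.9, adjusted p of 3.6e-12), Stk4 1.79 times (32.5 to 45.4 against 59.6 to 82.7 CPM, adjusted p of 2.3e-11) and Lats2 1.77 times (7.84 to 13.2 against 11.9 to 23.4 CPM, adjusted p of 8.6e-09). Lats1 was 1.62 times as high (adjusted p of 9.19e-08) and Wwtr1 1.57 times (adjusted p of 8.34e-05). Sav1 was lower at 0.835 times (adjusted p of 0.00482). For Nf2 and Stk4 no mouse of a run reached the range of the other, as for 26.1% of all tested genes.

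Between the runs, Stk3 and its paralogue Stk4 had different values. Stk3 had a log2 difference of -0.04 ± 0.081 (SE, adjusted p of 0.649, 95% interval of -0.20 to 0.11) against 0.84 ± 0.065 for Stk4, so that the Stk4 to Stk3 ratio was 1.70 to 2.43 in libraries 1 to 11 and 3.11 to 4.77 in libraries 12 to 23, without overlap. Yap1 differed by 0.24 ± 0.114 (adjusted p of 0.0648), and the Wwtr1 to Yap1 ratio was 3.23 ± 0.61 (SD, n = 10) and 4.33 ± 0.51 (SD, n = 12). Tead1 (-0.23 ± 0.149, adjusted p of 0.171) and Tead2 (0.02 ± 0.157, adjusted p of 0.897) did not pass the threshold. In the pathway lists, 21 of 25 core genes, 9 of 14 STRIPAK genes, 14 of 19 partners, 12 of 14 polarity and adhesion genes (all 12 higher) and 14 of 21 targets differed between the runs, against 68.1% of all tested genes. Tjp1, for example, had 26.9 to 37.1 CPM in libraries 1 to 11 and 72.2 to 108.5 CPM in libraries 12 to 23. Animals, tissue and libraries of the runs cannot be told apart.

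**Figure D4:**
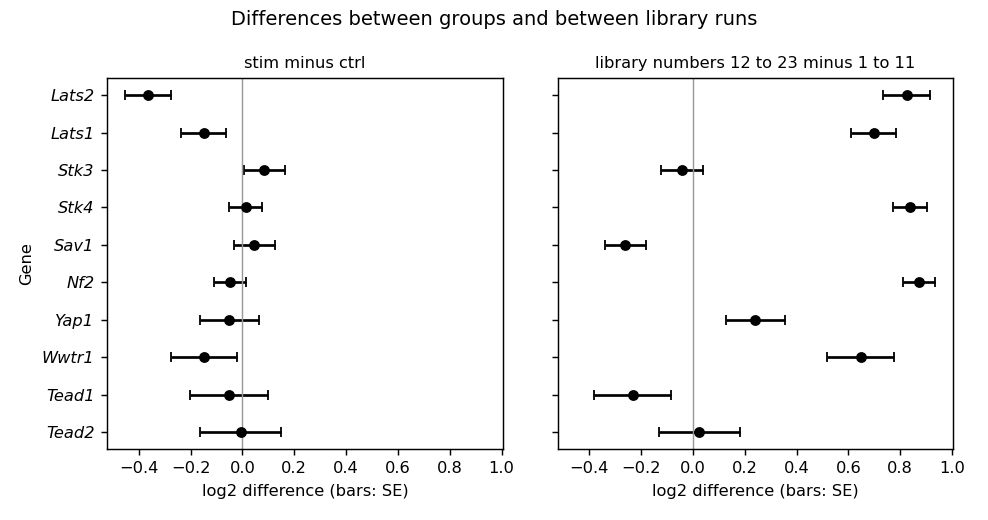
Log2 difference ± SE of each gene between stim and ctrl mice (left) and between libraries 12 to 23 and 1 to 11 (right), on the same scale. Lats2, chosen for its lower level in stim mice, lies at -0.36 on the left, and on the right 5 genes (Nf2, Stk4, Lats2, Lats1 and Wwtr1) lie between 0.65 and 0.87.

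Whether the group difference itself depended on the run was tested with the interaction term. Its p was under 0.05 before adjustment for 8.01% of all genes and for 1 of the 9 genes besides Lats2. After adjustment it was under 0.05 for 0 genes of the table in edgeR, the only tool used for this term. Stk3 was the 1 gene, with an interaction of 0.38 ± 0.145 (SE, p of 0.0148, adjusted p of 0.563). In libraries 12 to 23, 5 of 6 stim mice lay above every ctrl mouse for Stk3 (17.2 to 24.1 against 14.2 to 19.9 CPM), and in libraries 1 to 11 its 4 stim mice had 17.2, 19.7, 20.4 and 16.8 CPM against 17.6 to 23.9 CPM in ctrl mice. For Lats2 the interaction was -0.18 ± 0.178 (SE), given without a test.

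Levels of these genes also varied between mice of the same group and run. Log2 CPM was centred within group and run, and each gene was correlated over the 22 mice with the mean of each of 9 marker lists, 90 pairs in all. By Pearson's r with a two-sided permutation test within group and run, 27 of the 90 had an adjusted p under 0.05, 18 of them positive, and 31 had one by Spearman's rho. Of the 27 none was of Lats1 or Sav1. Values this high were common among all genes. An r of at least 0.6 in size, a bound chosen after the values had been seen, was found in 24 of the 90 pairs and in 14.8% of the pairs of all tested genes with these lists. With the neuronal list 8 of the 10 genes and 32.9% of all genes reached it, with the astrocyte list 6 and 31.4%, with the microglia list 4 and 25.8%, with the endothelial list 4 and 20.7%, and with the progenitor list 2 and 9.17%. These shares are descriptions without a test. All values come from the same libraries, and as CPM are shares of a library, a list that takes more leaves less for others.

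Lats2 varied against the neuronal markers (r = -0.74, p = 0.00137, adjusted p = 0.00822, rho = -0.75, p = 0.00061, adjusted p = 0.00422, permutation tests) and with the markers of oligodendrocyte progenitors (r = 0.69, p = 0.00291, adjusted p = 0.0145, rho = 0.71, p = 0.00164, adjusted p = 0.00796, permutation tests). Without the 2 mice farthest from the median of the score, r was -0.61 and 0.59. With the astrocyte and endothelial lists r was 0.62 and 0.60 (permutation test, adjusted p = 0.0505 and 0.0575, and 0.0471 and 0.0349 by rho), and with the oligodendrocyte list 0.41 (permutation test, adjusted p = 0.0856). Lats1 did not pass the threshold with any list, its r lying between -0.43 and 0.37.

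Nf2 and the co-activators varied with the astrocyte, microglia and endothelial lists. Yap1 had r = 0.83 with the astrocyte markers, 0.82 with microglia, 0.79 with endothelial and -0.83 with neuronal markers (permutation tests, adjusted p of 0.00216 to 0.0034), and without the 2 farthest mice r was 0.81, 0.89, 0.69 and -0.78. Wwtr1 had r = 0.79, 0.77, 0.79 and -0.78 with the same lists, and Nf2 0.80, 0.72, 0.62 and -0.69. By rho these correlations of Yap1, Wwtr1 and Nf2 also had adjusted p values under 0.05. With the progenitor list r was 0.67 for Wwtr1, 0.59 for Nf2 and 0.54 for Yap1 (permutation tests, adjusted p of 0.0138, 0.0175 and 0.066). With the oligodendrocyte list r was 0.04 to 0.19 for these genes and with the mural and vascular fibroblast list 0.12 to 0.34, and none passed the threshold. Tead1 went the same way with astrocyte (0.63), microglia (0.60) and neuronal (-0.72) markers. Stk4 went the other way, with r = -0.80 for astrocyte, -0.72 for microglia and 0.75 for neuronal markers (permutation tests, adjusted p of 0.00216, 0.0114 and 0.00582), and Stk3 had r = 0.62 with neuronal markers (adjusted p = 0.0247). Sav1 passed with none of the lists. Among the pairs of the 10 genes, 3 of 45 had an adjusted p under 0.05 by r, namely Nf2 with Yap1 (0.76), Nf2 with Wwtr1 (0.71) and Yap1 with Wwtr1 (0.79), and 7 had one by rho. An r of at least 0.6 in size was found in 5 of the 45 pairs and in 8.26% of all pairs of tested genes. Lats2 was closest to Wwtr1 (r = 0.60, adjusted p = 0.0867, rho = 0.69, adjusted p = 0.0274, permutation tests), and with Lats1 it had r = 0.45.

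**Figure D5:**
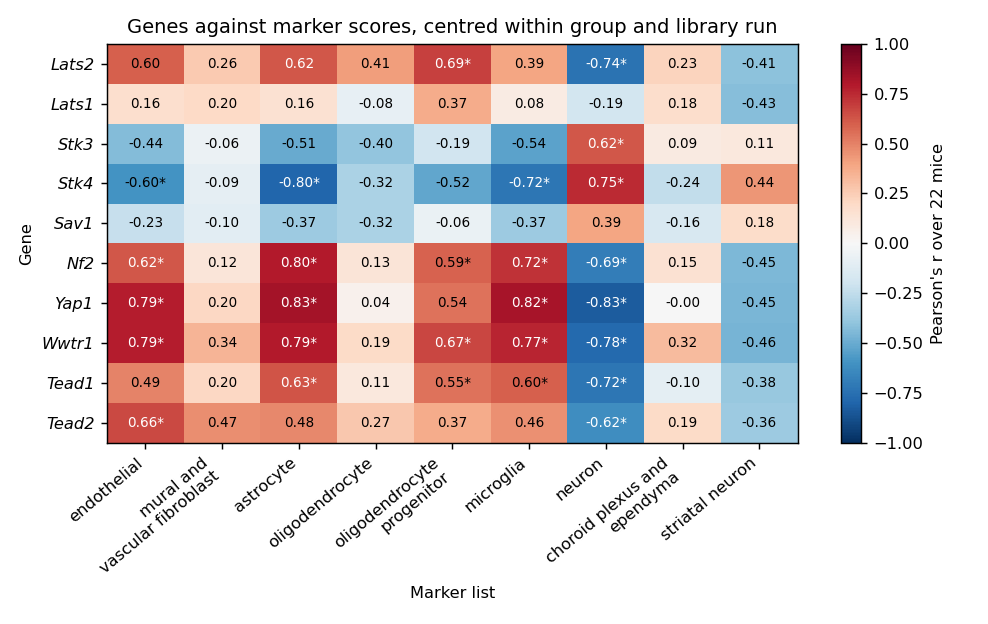
Pearson's r over 22 mice between each gene (rows) and the mean of each marker list (columns), values centred within group and run of library numbers; red is positive, blue negative, and a star marks an adjusted p under 0.05 in the permutation test. Nf2, Yap1 and Wwtr1 are positive with astrocyte, microglia and endothelial lists and negative with the neuronal list, and Stk4 shows the opposite signs.

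Over all 17523 other genes tested, r with Lats2 had a median of 0.02, with 5% of genes under -0.68 and 5% over 0.62. The 5 genes most like Lats2 were 2410021H03Rik (r = 0.88, rho = 0.91), Gng12, a G protein gamma subunit (0.87, 0.82), Klf3, a transcriptional repressor of the KLF family (0.85, 0.90), Katna1, the catalytic subunit of katanin (0.85, 0.80), and Mro (0.84, 0.84). Without the 2 farthest mice r stayed between 0.80 and 0.86. With values centred within runs alone, none of them was among the 5 most like Lats2. Their ranks were then 59, 7, 65, 205 and 83 in the order named, with r between 0.74 and 0.86. Being the top of 17523 values, these are descriptions without a test. 2410021H03Rik had at most 1.08 CPM. Wwtr1 ranked 1071 and Lats1 2825 in the same order. Their log2 differences between stim and ctrl mice were, in the order named, -0.67 ± 0.41, -0.24 ± 0.092, -0.09 ± 0.073, -0.06 ± 0.078 and -0.16 ± 0.13 (SE).

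In the mm10 assembly, with GENCODE M21 coordinates, Lats2 lies on chromosome 14 from 57689662 to 57758388, on the minus strand, and Lats1 on chromosome 10 from 7681214 to 7716460, on the plus strand. The exons of Lats2 share 2955 bases with Gm49361, an annotated gene of the same strand with no row in the table used here, and those of Sav1 share 1336 bases with Atl1 on the opposite strand, so part of these counts could belong to the neighbour. For Yap1 (116 bases, Gm20416) and Tead2 (13 bases, Cd37) the shared exon is short.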

How the data were processed

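RNA of bulk ACC tissue was sequenced in 22 mice (12 ctrl, 10 stim), and samples were grouped by their labels. Per the submitters' processing notes and the paper, the single-end reads were trimmed (cutadapt 1.10), aligned to mm10 (STAR 2.5.3a) and assigned to Ensembl genes where the alignment was unique (htseq-count 0.6.1p1). The strand setting is not given in the sources used here. The authors deposited these raw counts, which were used here, with counts divided by size factors and their own fold changes and p-values (DESeq2 1.22.1, with RNA integrity and batch), which were not used. Every per-sample column belonged to a sample of the series (0 others).

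The deposited counts were tested in edgeR 4.0.16 (R 4.3.3) with TMM, glmQLFit and glmQLFTest, with group and run of library numbers as terms, on 17524 genes (10 or more counts in 10 or more mice), and p-values were adjusted by Benjamini-Hochberg over these genes. A gene is called at an adjusted p under 0.05. The SE is the log2 difference over the square root of F, and intervals of 95% are normal intervals from the SE. The study fitted batch and RNA integrity. The labels do not give them, and the supplementary table in which the paper places them was not used here. Levels per kilobase use the merged exon length of GENCODE M21, to which 37772 of 37786 genes matched. Marker scores are means of centred log2 CPM (prior count 2), and correlations were tested with 100000 permutations within group and run. Alternatives were limma 3.58.1 (voom with quality weights), the Wald test of DESeq2 1.42.0, its size factors in edgeR, 2 other count minimums, group as the only term, the replicate number as a block, each run alone, and the fit without ctrl mice 9 and 11, for correlations another score, centring or prior count, and for the genes most like Lats2 another centring or prior count.

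The 10 genes, the pathway and marker lists and the tests were chosen with earlier results of these data known. Genes are named if they are among the 10, if they have an unadjusted p under 0.05 in a pathway list (or the 3 smallest p of that list), or if they are the 5 most like Lats2. Some of the genes taken by this rule are not reported here. Mob1a, Mob1b, the 14-3-3 genes, Tead3, Tead4, Ctgf and Cyr61 were named after their values had been seen. The fits were tested on simulated data before use. Counts carry no molecular identifiers, so they measure reads and not molecules, and p-values measure the spread between these mice.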

Additional observations from a re-analysis of the deposited data

How the results depend on the processing

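Of the alternative values, 220 kept their direction and their side of the threshold, 10 moved, 11 changed sign and 2 came to pass the threshold. Between stim and ctrl mice 0 genes were called by edgeR with either normalization, but the DESeq2 Wald test called 33, limma voom 1 and the fit without ctrl mice 9 and 11 called 1. Genes with an unadjusted p under 0.05 numbered 2015, against 3687 with no count minimum (more genes tested), 632 with group as the only term, 1339 without ctrl mice 9 and 11 and 974 in libraries 1 to 11 alone. The log2 difference of Lats2 was negative in all 10 alternatives. As Lats2 was chosen for its lower level in these same data, this is no check of it. Those of Lats1 and Wwtr1 were also negative in all 10. Differences close to 0 changed sign. In libraries 1 to 11 alone Stk3 was at -0.11, Stk4 at -0.028, Sav1 at -0.082, Tead1 at 0.0049 and Tead2 at 0.051. Without ctrl mice 9 and 11 Stk4 was at -0.013 and Tead2 at 0.036. Nf2 was at 0.029 with group as the only term, Yap1 at 0.056 in libraries 12 to 23 alone and Tead2 at 0.0043 with no count minimum. The cause was not tested. Between the runs, Tead2 was at -0.040 with at least 10 counts in every mouse, and Yap1 passed the adjusted threshold with the DESeq2 Wald test and with limma. With group as the only term, 11 core genes and 5 polarity and adhesion genes were lower, against 18 and 9. The correlations with marker scores passing the threshold numbered 26 to 36 over the alternatives, against 27.

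The replicate numbers shared by the groups name different mice. Deviations from the means of group and run correlated at 0.0511 on average between same-numbered mice (lowest -0.133) and at -0.0047 between others, so the numbers do not pair the mice. With a replicate block the fit called 0 genes, 1983 genes had an unadjusted p under 0.05, and Lats2 was at -0.40. Of the 5 genes most like Lats2, Katna1 had r = 0.74 with values centred within runs alone, against 0.85.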

Other observations

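Further cell type markers were compared between stim and ctrl mice in the same edgeR fit, and 0 of them passed an adjusted p under 0.05 by edgeR, DESeq2 or limma. Of 14 endothelial markers 12 were lower in stim mice (median log2 difference -0.09, 0 with p under 0.05 before adjustment), and of 14 mural and vascular fibroblast markers 10 were lower (median -0.06, 1 with p under 0.05). Among 9 markers of oligodendrocyte progenitors 7 were lower (median -0.05, 1 with p under 0.05), and their summed level was 100.04 to 283.8 CPM in ctrl and 116.4 to 218.8 CPM in stim mice. Of 11 microglial markers 3 were lower and 8 higher (median 0.08, 0 with p under 0.05). The 9 striatal neuron markers were all higher in value (median 0.10, 0 with p under 0.05). Of the choroid plexus and ependyma list, 5 of 9 genes could be tested and all 5 were lower (median -0.82, 3 with p under 0.05), with a summed level of 7.44 to 140.2 CPM in ctrl and 8.84 to 21.0 CPM in stim mice.

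Between the runs of library numbers, where 68.1% of all tested genes passed the adjusted threshold in edgeR, 13 of 14 endothelial markers passed (9 higher in libraries 12 to 23), 9 of 14 mural and vascular fibroblast, 10 of 14 astrocyte, 5 of 15 oligodendrocyte, 7 of 9 oligodendrocyte progenitor, 9 of 11 microglial (6 of them lower), 9 of 12 neuronal, 3 of 5 choroid plexus and ependyma and 4 of 9 striatal neuron markers.

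Without ctrl mice 9 and 11 the medians between stim and ctrl mice were -0.08 for the endothelial list (9 of 14 lower), -0.0011 for the mural and vascular fibroblast list (8 of 14 lower, against 10 with these mice), -0.03 for the progenitor list (5 of 9 lower), 0.05 for the microglial list (4 of 11 lower), 0.08 for the striatal neuron list (1 of 9 lower) and -0.25 for the choroid plexus and ependyma list (4 of 5 lower, 2 with p under 0.05 before adjustment).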
